A study of Homo sapiens with 6 samples.

Results

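The genes described here are targets of the transcription factor p53, followed in MDA-MB-231 cells after knockdown of CRP2. They were chosen by symbol, from a list of 37 symbols, and each symbol was matched to its Ensembl row in the deposited count table. Of the 37 symbols, 36 had a row. The symbol XPCP1 matched no gene of GENCODE release 44 and was not analysed here. EDA2R, the receptor for ectodysplasin A2, had 0 reads in all 6 libraries, where 3 reads would correspond to between 0.0768 and 0.175 CPM (counts scaled to 1000000 per library). The remaining 35 genes were tested among 23806 genes that passed the low-count filter, out of 58395 rows.

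MDA-MB-231 is a human triple-negative breast adenocarcinoma cell line with mutant p53. Whether the p53 of this line acts on the genes described here was not tested. The siCRP2 group held 3 libraries from cells transfected with siCRP2#a, a small interfering RNA (siRNA) against CSRP2, the gene of the actin-bundling and LIM-domain protein CRP2. The siCTR group held 3 libraries from cells that received a non-targeting siRNA. Both groups were harvested 65 hours after transfection according to the labels, while the study's methods give a slightly later time for cell lysis. The study calls the replicates biological. With 1 siRNA sequenced, an effect of lowering CRP2 and any other effect of that siRNA cannot be told apart. Each library carries 1 of the codes 0412, 0611 and 1311, which occur once in each group, and the values of a group are given in that order of codes.

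The libraries held 17336798 to 39115778 counted reads. CSRP2 had 2.17, 1.78 and 1.89 CPM in siCRP2 cells, against 13.7, 11.7 and 11.4 CPM in siCTR cells, a log2 fold change of -2.66 (standard error, SE, 0.178; adjusted p = 2.42e-08 by edgeR's quasi-likelihood test). The genes taken as markers of the line (VIM, CD44, EGFR, AXL and CAV1) stood at 229 CPM or more in every library. Among them AXL fell by 1.06 on the log2 scale (SE 0.108, adjusted p = 3.09e-06 by the same test), at 229 to 293 CPM in siCRP2 and 481 to 607 CPM in siCTR libraries. Of 6 luminal genes, GATA3, CDH1, EPCAM and KRT19 were counted at 12.1 to 457 CPM, and CDH1, the gene of E-cadherin, rose by 0.94 (SE 0.158; adjusted p = 6.52e-04), at 26.8 to 37.4 CPM in siCRP2 and 14.3 to 21.0 CPM in siCTR libraries. ESR1, PGR, CD3E and ALB were all at 0.137 CPM or less, and PTPRC, the pan-leukocyte gene, at 0.751 CPM or less. CD68 and INS were at 0.277 CPM or less, but 100% and 52.9% of their transcripts are shared with other annotated genes, so these counts do not show that the genes are silent. PECAM1, an endothelial and blood-cell gene, had 4.60 to 6.95 CPM in siCRP2 libraries and 9.64 to 21.5 CPM in siCTR libraries, and its part in the results was not tested.

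p53 is activated by DNA damage, ribosomal stress and other insults, and it binds a response element made of a pair of similar decamers near its target genes. Its targets arrest the cell cycle, promote or restrain apoptosis, adjust metabolism and redox state, repair DNA, and feed back on p53 itself through MDM2, the ubiquitin ligase that degrades it. Other factors can drive the same genes, so transcript levels of the targets do not by themselves measure the activity of the pathway.

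Among the 35 p53 targets tested, 8 were higher and 10 were lower in siCRP2 than in siCTR cells at an adjusted p under 0.05, and 17 did not pass (edgeR's quasi-likelihood test, Benjamini-Hochberg adjustment over all 23806 genes). Of all genes tested, 12.5% were higher and 11.5% were lower by the same rule. The genes that rose were AEN, GADD45A, SESN1, TP53INP1, POLH, CDKN1A, CCNG1 and TRIAP1. Those that fell were TNFRSF10C, CYFIP2, DRAM1, FAS, TP53I3, PLK3, RPS27L, TNFRSF10B, BAX and APAF1. Their log2 fold changes ran from -2.45 to 1.42 with a median of 0.01, beside a median of -0.02 over all genes tested.

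Many of all genes tested were weakly expressed, and calls were fewer among those. Among the 33 p53 targets with a mean of at least 1 CPM, 24.2% were higher and 27.3% were lower, beside 21.9% and 17.8% of the 13196 genes at that level. Requiring a fold change of at least 1.5 as well left 4 higher targets (AEN, GADD45A, SESN1 and TP53INP1) and 5 lower ones (TNFRSF10C, CYFIP2, DRAM1, FAS and TP53I3). Of all genes, 4.58% were higher and 7.8% were lower past that limit. All 3 siCRP2 libraries lay above all 3 siCTR libraries for 13 targets and below them for 10, against 19.4% and 18.0% of all genes. The list did not move in 1 direction by any of these counts.

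**Figure D1:**
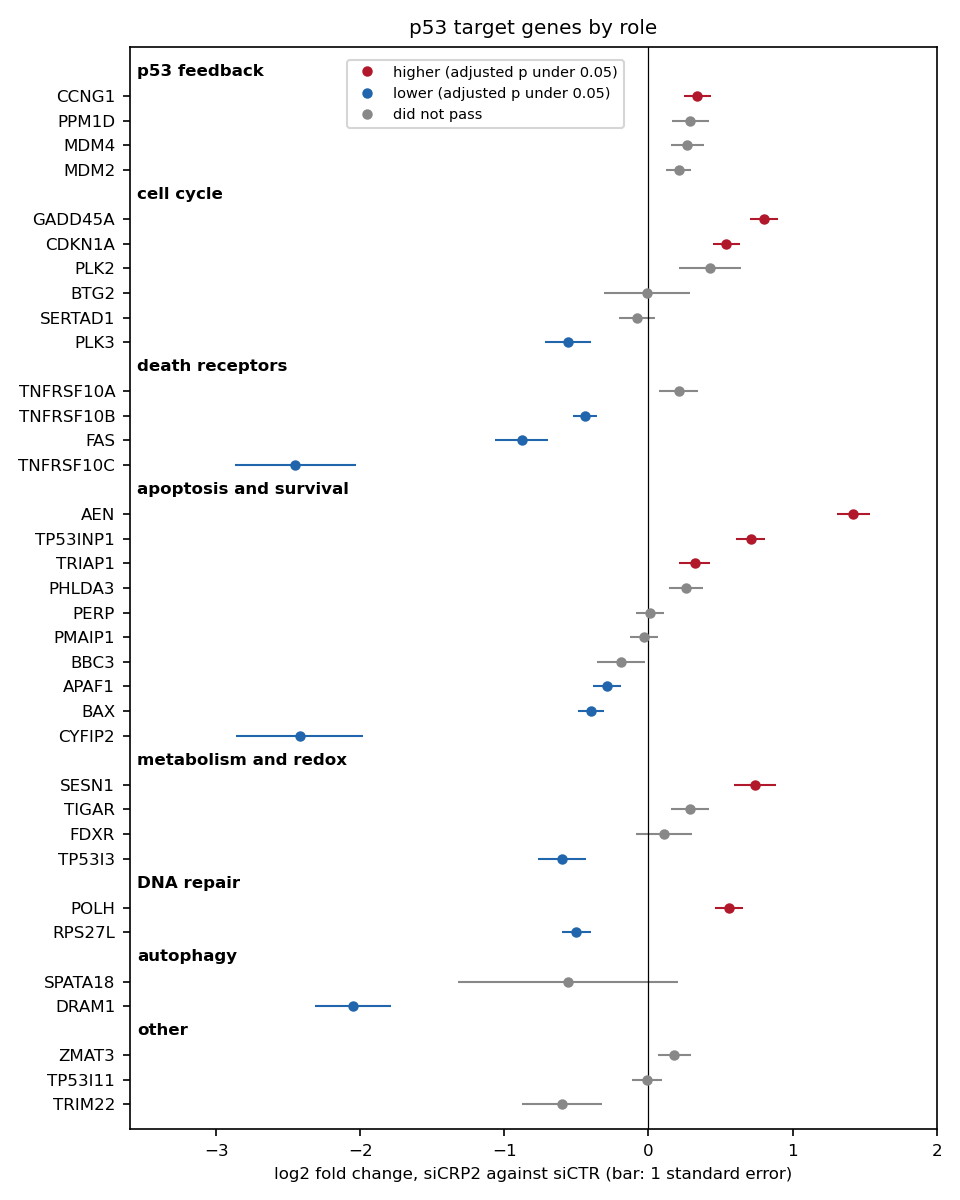
Log2 fold change of the 35 tested p53 targets, siCRP2 against siCTR (x axis, bars 1 SE), grouped by role down the page; red and blue mark genes called higher and lower, and grey those that did not pass. AEN stands highest at 1.42 and TNFRSF10C lowest at -2.45, and cell cycle, apoptosis, metabolism and DNA repair each hold both red and blue points.

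The libraries of the 2 groups that shared a code deviated together from their group means, so they were also compared within codes (a replicate block). With that block 15 targets were higher and 11 were lower, and all 8 higher and all 10 lower calls were kept. Over all genes, 19.5% were higher and 17.8% lower with the block. The added targets were MDM2, MDM4, PPM1D, PLK2, TNFRSF10A, PHLDA3 and TIGAR, all higher, and TRIM22, lower. For each of these 8 genes the within-code ratios had the same direction in all 3 codes, as the plot of the paired libraries shows. The block test also draws its variance from the other genes tested, so its adjusted p does not measure how closely 3 pairs agree.

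The feedback genes act on p53 or on MDM2. MDM2 had 68.2, 61.3 and 66.2 CPM in siCRP2 cells, against 57.2, 56.2 and 56.3 CPM in siCTR cells. The siCRP2 libraries all lay above the siCTR libraries, yet the difference was small: the log2 fold change was 0.21 (SE 0.0876; adjusted p = 0.105 by edgeR's quasi-likelihood test, 0.0113 with the replicate block). A part of the MDM2 transcript, 16.3% of its length, is shared in the genome with other annotated genes on either strand.

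CCNG1 encodes cyclin G1, which recruits a phosphatase to MDM2. It had a log2 fold change of 0.34 (SE 0.0950; adjusted p = 0.0143) with libraries between 119.6 and 141 CPM in siCRP2 cells and between 94.0 and 114 CPM in siCTR cells. Its adjusted p was 0.0675 without the siCRP2 library 0412, 0.102 without siCRP2 0611 and 0.0543 without siCTR 1311. MDM4, which holds p53 inactive together with MDM2, stood at 0.27 (SE 0.114; adjusted p = 0.100, and 0.0043 with the block). PPM1D, a phosphatase that reverses damage signalling to p53, stood at 0.29 (SE 0.129; adjusted p = 0.129, and 0.0111 with the block). In all 4 feedback genes every siCRP2 library lay above every siCTR library, as in 19.4% of all genes, and 1 of the 4 passed without the block.

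**Figure D2:**
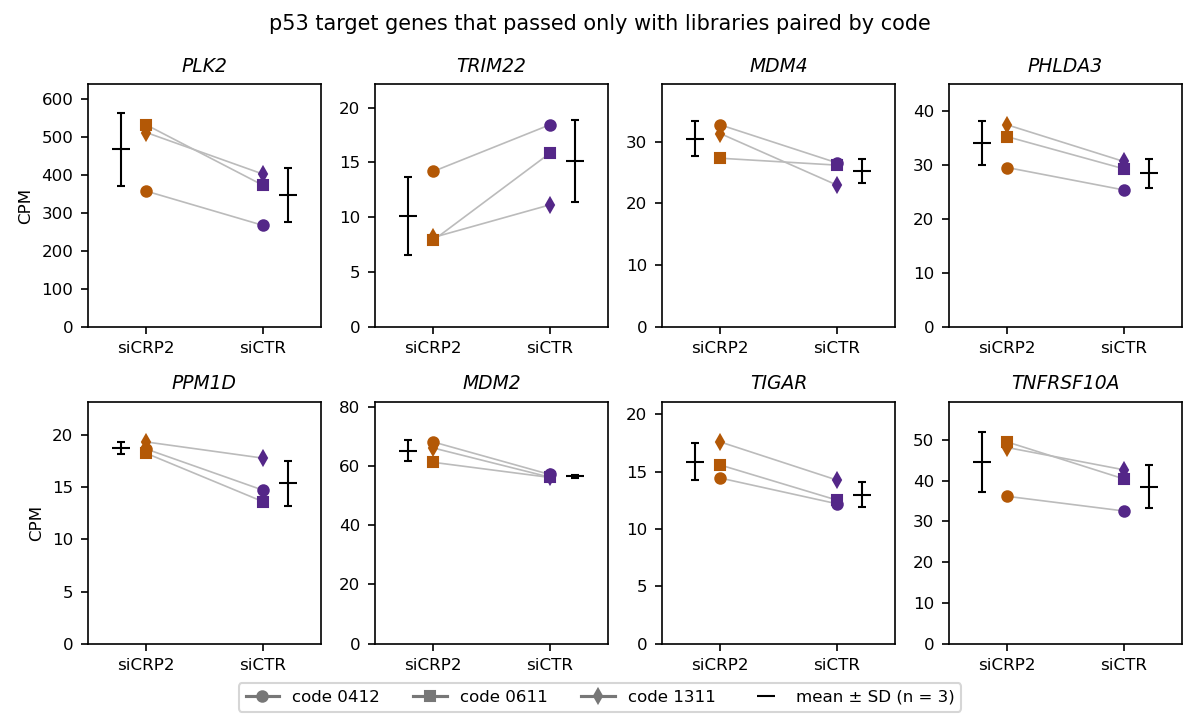
Shown is CPM (y axis, linear from 0), siCRP2 left and siCTR right. The 8 p53 targets passed with libraries paired by code but not in the main unpaired test. Each point is a library, its shape gives the code, lines join libraries of a code, and bars are mean ± SD (n = 3). For PLK2 the libraries of code 0412 are lowest in both groups, and in all 8 panels the 3 lines run in 1 direction.

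Among the cell-cycle targets, the arrest genes CDKN1A and GADD45A rose. CDKN1A encodes p21, an inhibitor of cyclin-dependent kinases (chr6:36676460-36687337, plus strand, GRCh38). It had 163, 151 and 132 CPM in siCRP2 cells, against 104, 106 and 95.6 CPM in siCTR cells. The lowest siCRP2 library lay above the highest siCTR library, and the log2 fold change was 0.54 (SE 0.0922; adjusted p = 3.25e-04 by edgeR's quasi-likelihood test), a 1.46-fold difference.

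GADD45A, a growth-arrest gene that takes part in stress-kinase signalling and DNA demethylation (chr1:67685201-67688334, plus strand), moved further. It had 65.7, 62.1 and 74.1 CPM in siCRP2 cells, against 38.6, 40.6 and 37.2 CPM in siCTR cells. The groups were widely separated, with a log2 fold change of 0.80 (SE 0.0975; adjusted p = 1.46e-05). Within the codes 0412, 0611 and 1311 the log2 ratios were 0.77, 0.61 and 1.00.

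The polo-like kinases of the list went in opposite directions. PLK3 fell by 0.56 on the log2 scale (SE 0.161; adjusted p = 0.0184), at 11.1 to 14.4 CPM in siCRP2 libraries and 15.3 to 23.1 CPM in siCTR libraries. This call was lost without siCRP2 0412, siCRP2 0611 or siCTR 1311, at adjusted p of 0.0799, 0.0843 and 0.103. PLK2 had 357, 531 and 511 CPM in siCRP2 cells, against 266, 372 and 401 CPM in siCTR cells. Its groups overlapped because the siCRP2 library 0412 lay below the siCTR libraries 0611 and 1311. By edgeR's quasi-likelihood test its log2 fold change of 0.43 had an SE of 0.215 and an adjusted p of 0.232 without the block. With the block the SE was 0.0631 and the adjusted p was 1.29e-10. PLK2 also passed without the block when low counts were not filtered, and when the siCRP2 library 0412 was left out. BTG2, an antiproliferative gene, stood at -0.01 (SE 0.296) with at most 2.1 CPM in any library, and SERTAD1 at -0.08 (SE 0.122). Per kilobase of canonical transcript PLK2 was the most abundant of the listed genes in siCTR cells, at 124 CPM per kilobase, followed by BAX at 90.7 and TNFRSF10B at 63.5.

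The death receptors carry signals from ligands outside the cell to caspases. Of 3 such receptors that were tested, FAS and TNFRSF10B fell and TNFRSF10A did not pass without the block. Beside them, 11.5% of all genes were lower, and 17.8% of those averaging 1 CPM or more. FAS, the receptor of FAS ligand (chr10:88953813-89029605, plus strand), had 3.28, 3.99 and 3.81 CPM in siCRP2 cells, against 6.79, 5.88 and 7.73 CPM in siCTR cells. The siCTR libraries were all higher, and the log2 fold change was -0.88 (SE 0.184; adjusted p = 0.00186), a 1.84-fold lower level.

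TNFRSF10B, a receptor of the death ligand TRAIL, was expressed far above FAS per kilobase and fell by 0.44 (SE 0.0856; adjusted p = 0.00116). Its libraries held 183 to 196 CPM in siCRP2 cells and 234 to 273 CPM in siCTR cells, with no overlap. TNFRSF10A, the other TRAIL receptor with a death domain, stood on the opposite side at 0.21 (SE 0.133; adjusted p = 0.286, and 0.0234 with the block). The difference between the 2 receptors was not tested.

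TNFRSF10C encodes a decoy receptor that binds TRAIL without passing on a death signal. It had 0.370, 0.235 and 0.154 CPM in siCRP2 cells, against 0.948, 1.75 and 1.28 CPM in siCTR cells. All siCTR libraries were higher, and the log2 fold change was -2.45 (SE 0.420; adjusted p = 3.51e-04). This rests on 18 reads in siCRP2 and 82 reads in siCTR libraries. As 36.6% of the TNFRSF10C transcript is shared with other annotated genes on the same strand, reads from that part may be missing. TNFRSF10D, a second decoy receptor, was in the list of further targets described later and is named here after its values were seen: it fell by 0.65 (SE 0.125; adjusted p = 0.00116), at 32.0 to 37.2 CPM in siCRP2 libraries and 46.3 to 66.4 CPM in siCTR libraries. In bulk RNA, fewer cells expressing a gene and less RNA per cell cannot be told apart, here and for every other gene.

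Apoptosis genes inside the cell were split. AEN, an apoptosis-enhancing nuclease (chr15:88621337-88632281, plus strand), had 40.8, 43.0 and 47.9 CPM in siCRP2 cells, against 15.4, 15.7 and 18.2 CPM in siCTR cells. No siCRP2 library came near the siCTR range. The log2 fold change of 1.42 (SE 0.115; adjusted p = 1.7e-07), or 2.68-fold, was the largest rise among the 35 targets, and the log2 ratios within codes lay between 1.40 and 1.45.

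TP53INP1, a stress protein that promotes cell death and autophagy, had 53.8, 51.5 and 53.1 CPM in siCRP2 cells, against 33.9, 33.7 and 29.1 CPM in siCTR cells. The groups did not overlap, with a log2 fold change of 0.71 (SE 0.0997; adjusted p = 5.53e-05). TRIAP1, a mitochondrial protein that restrains apoptosis, rose by 0.32 (SE 0.108; adjusted p = 0.0404). This was the weakest of the 8 higher calls: it was lost in 10 of 16 alternative settings, and without any 1 library other than siCTR 0412 its adjusted p lay between 0.0847 and 0.214.

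BAX, which opens the outer mitochondrial membrane (chr19:48954815-48961798, plus strand), had 49.7, 57.1 and 56.6 CPM in siCRP2 cells, against 71.1, 70.0 and 75.1 CPM in siCTR cells. The highest siCRP2 library stayed below the lowest siCTR library. The log2 fold change was -0.40 (SE 0.0909; adjusted p = 0.00333). APAF1, the scaffold of the apoptosome, fell by 0.29 (SE 0.0968; adjusted p = 0.0376), a call lost in 8 of the 16 settings, with an adjusted p between 0.0631 and 0.121 without any 1 library other than siCTR 1311.

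BBC3, the gene of the BH3-only protein PUMA, did not pass. It had 9.20, 8.12 and 7.88 CPM in siCRP2 cells, against 7.62, 10.1 and 11.1 CPM in siCTR cells. The siCTR libraries spanned the siCRP2 range, with a log2 fold change of -0.19 (SE 0.166; adjusted p = 0.449). PMAIP1, the gene of the BH3-only protein NOXA, stood at -0.03 (SE 0.0993), and PERP, a membrane protein of desmosomes, at 0.01 (SE 0.0944), both at 79.6 CPM or more in every library.

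CYFIP2, a subunit of the WAVE complex that controls actin branching, had 0.476, 0.657 and 0.179 CPM in siCRP2 cells, against 3.12, 1.92 and 1.42 CPM in siCTR cells. All siCTR libraries were higher. The log2 fold change was -2.42 (SE 0.441; adjusted p = 0.0011) and rests on 30 reads in siCRP2 and 143 reads in siCTR libraries. PHLDA3, which blocks membrane recruitment of AKT, stood at 0.26 (SE 0.118; adjusted p = 0.124, and 0.00609 with the block), and 21.8% of its transcript overlaps another annotated gene on the same strand.

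**Figure D3:**
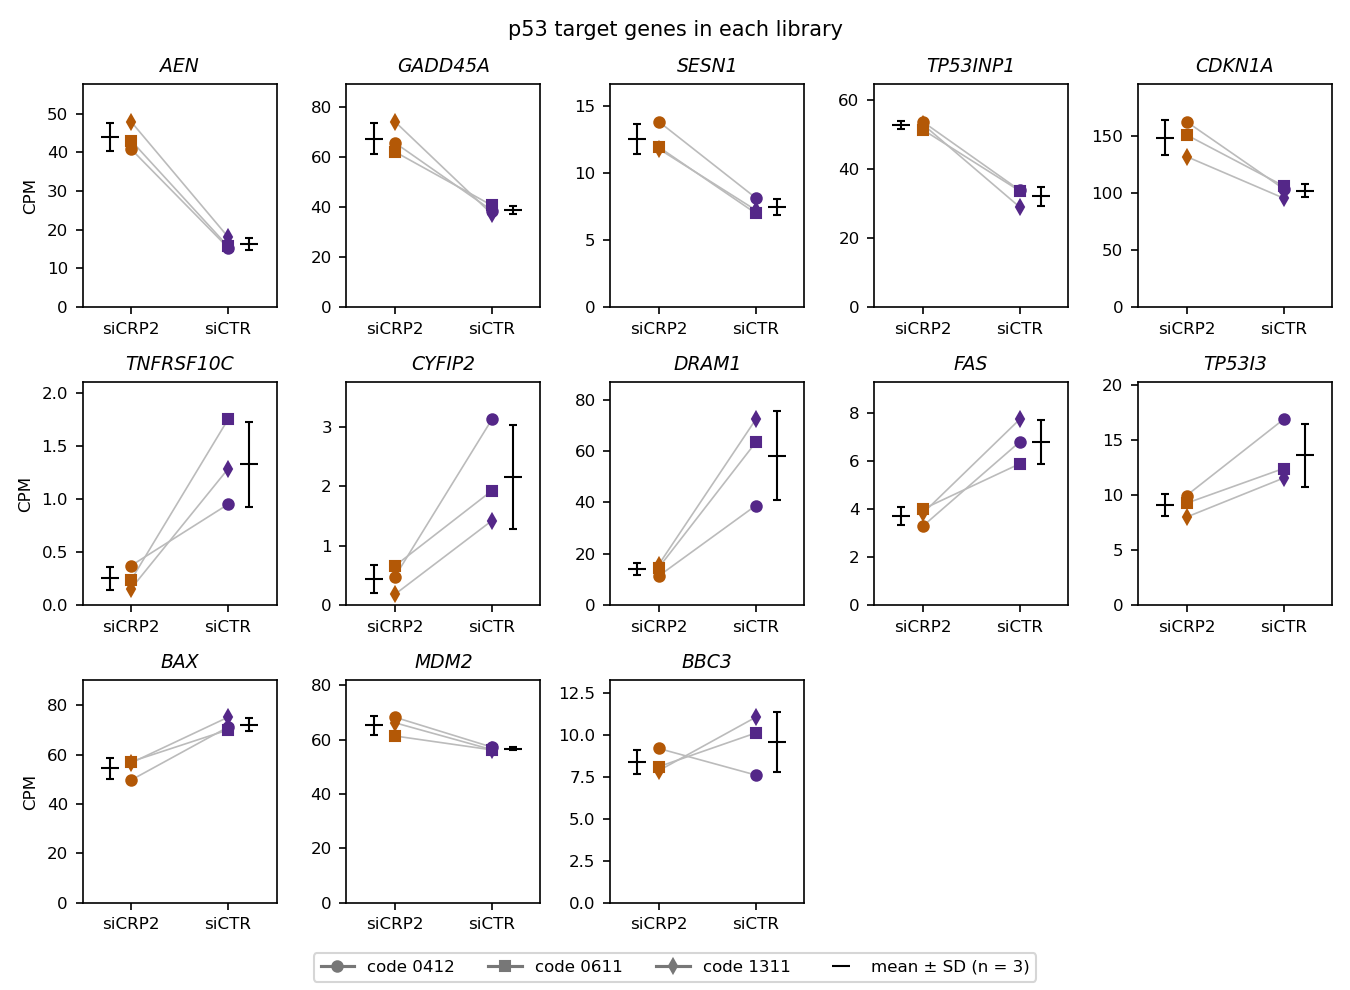
CPM in each library (y axes, linear from 0) for 13 p53 targets, siCRP2 left and siCTR right; each point is a library, its shape gives the code, lines join libraries of a code, and bars are mean ± SD (n = 3). The top row holds targets that rose, such as AEN at 40.8 to 47.9 CPM in siCRP2 and 15.4 to 18.2 CPM in siCTR libraries, the middle row holds targets that fell, such as DRAM1 at 11.3 to 15.8 CPM in siCRP2 and 38.7 to 72.3 CPM in siCTR libraries, and in the bottom row the BBC3 libraries overlap.

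Of the targets in metabolism and redox control, SESN1 rose. SESN1 is a sestrin, a stress protein that restrains the growth kinase mTORC1 (chr6:108984309-109094846, minus strand). It had 13.8, 11.9 and 11.8 CPM in siCRP2 cells, against 8.14, 6.99 and 7.23 CPM in siCTR cells. The groups were clearly apart, with a log2 fold change of 0.74 (SE 0.146; adjusted p = 0.00119).

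TP53I3, a quinone oxidoreductase that generates reactive oxygen species, moved the other way. It had 9.95, 9.25 and 7.99 CPM in siCRP2 cells, against 16.9, 12.4 and 11.5 CPM in siCTR cells. The groups did not overlap, although the siCTR library 0412 stood above the other two. The log2 fold change was -0.60 (SE 0.163; adjusted p = 0.0124), and without that library it was -0.41 with an adjusted p of 0.0657, and without siCRP2 1311 it was -0.53 with an adjusted p of 0.0623. TIGAR, a phosphatase that lowers glycolysis, stood at 0.29 (SE 0.133; adjusted p = 0.132, and 0.0157 with the block), and FDXR, a mitochondrial ferredoxin reductase, at 0.11 (SE 0.193).

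The DNA repair targets also split. POLH, the polymerase that copies past ultraviolet lesions, rose by 0.56 (SE 0.0968; adjusted p = 3.77e-04), at 55.6 to 58.0 CPM in siCRP2 libraries and 36.0 to 42.3 CPM in siCTR libraries. RPS27L, a ribosomal protein paralog, fell by 0.50 (SE 0.0980; adjusted p = 0.00111), at 31.2 to 34.7 CPM in siCRP2 and 44.2 to 47.4 CPM in siCTR libraries. Its close relative RPS27 had 304 to 344 CPM in siCRP2 libraries and 287 to 316 CPM in siCTR libraries, so the lower RPS27L count did not accompany a lower RPS27 count.

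Apart from TNFRSF10C and CYFIP2, with their few reads, DRAM1 fell further than any other target. It encodes a lysosomal membrane protein needed for autophagy under p53 (chr12:101877580-102012130, plus strand). It had 11.3, 14.6 and 15.8 CPM in siCRP2 cells, against 38.7, 63.4 and 72.3 CPM in siCTR cells. The siCTR libraries varied widely, but each lay far above every siCRP2 library, and the log2 fold change was -2.05 (SE 0.266; adjusted p = 0.00246). Within the codes the log2 ratios were -1.78, -2.12 and -2.20. SPATA18, a mitochondrial quality-control gene, was hardly detected, with 8 reads in siCRP2 and 10 reads in siCTR libraries.

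The last 3 targets fit none of these roles and did not pass. TRIM22, an interferon-induced ubiquitin ligase, had 14.2, 7.89 and 8.14 CPM in siCRP2 cells, against 18.4, 15.8 and 11.1 CPM in siCTR cells. These groups overlapped, with a log2 fold change of -0.60 (SE 0.276). Its adjusted p by edgeR's quasi-likelihood test was 0.174, or 2.77e-07 with the block. Within the codes 0412, 0611 and 1311 the log2 ratios were -0.38, -1.01 and -0.45, so the pairs agreed in direction but not in size. ZMAT3, an RNA-binding zinc-finger protein, stood at 0.18 (SE 0.114), and TP53I11 at -0.01 (SE 0.102).

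The promoters of 29 of these genes were found among RefSeq promoter sequences of GRCh38.p14, each from 250 bases before to 50 bases after the start of the gene. They were searched for the p53 decamer, the purine- and pyrimidine-flanked core of which a pair forms a full response element. It reads the same on both strands. A match occurred in 4 of the 29 promoters, or 13.8%, beside 5.52% of the 13418 promoters of all genes tested and 6.54% of all 27305 promoters. The 4 matches are shown because they are the places in these windows where such a decamer occurs, with the decamer in capitals. Full elements, with a second decamer that may differ in some letters, were not searched for.
AEN (chr15:88621296-88621325, plus strand): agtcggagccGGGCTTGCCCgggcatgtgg
RPS27L (chr15:63157517-63157546, minus strand): ggcctagagcAGACAAGCCCgccccgccgc
PLK2 (chr5:58460199-58460228, minus strand): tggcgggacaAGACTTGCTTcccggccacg
FDXR (chr17:74872986-74873015, minus strand): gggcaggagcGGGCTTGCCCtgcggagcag
The first base of the decamer lay at -34 in AEN, -59 in RPS27L, -132 in PLK2 and -11 in FDXR, counted from the RefSeq start that sets each window, which differs from the GENCODE start of these genes. AEN rose and RPS27L fell, so the genes with a match did not share a direction. PLK2 did not pass without the block, and FDXR did not pass with or without it. Response elements elsewhere, such as in introns or further upstream, were not searched.

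The heptamer GCCTCAC was counted next in the canonical transcripts, because it was selected in earlier work on this table by its relation to these fold changes. For that reason its shares are a description and support nothing. It occurred on the sense strand of 5 of the 10 lower targets (50%), 2 of the 8 higher ones (25%) and 3 of the 17 that did not pass (17.6%). Over all 14858 protein-coding genes tested, the share with the heptamer was 46.5% among genes called lower, 11.9% among genes called higher and 21.9% among the rest. The sites of the lower targets are shown first and those of the 2 higher targets after them, with the heptamer in capitals.
DRAM1 in the 3′ untranslated region (UTR) (chr12:101923289-101923317, plus strand): tccatacttctGCCTCACttcgagcagac
PLK3 in the coding sequence (chr1:44803083-44803111, plus strand): ccatccttcggGCCTCACcccgagaccgc
PLK3 in the 3′ UTR (chr1:44805746-44805774, plus strand): cttcctttggtGCCTCACtgggggctttg
BAX in the coding sequence (chr19:48961593-48961621, plus strand): gagtgctcaccGCCTCACtcaccatctgg
TP53I3 in the coding sequence (chr2:24077703-24077731, minus strand): gagcaaattctGCCTCACttctccacgga
APAF1 in the 5′ UTR (chr12:98645528-98645556, plus strand): ccgtgggccggGCCTCACcgcggcgctcc
CDKN1A in the 3′ UTR (chr6:36686270-36686298, plus strand): actttgaagggGCCTCACcgagtgggggc
POLH in the 3′ UTR (chr6:43617277-43617305, plus strand): aaatagtctcaGCCTCACcactattccca
FAS, TNFRSF10B, TNFRSF10C, CYFIP2 and RPS27L fell without the heptamer in their canonical transcript. CDKN1A and POLH rose with it in their 3′ UTR.

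Genes that act on p53 or carry signals to it were followed as a separate list of 24. Of 23 that were tested, 7 were higher (30.4%), 1 was lower (4.35%) and 15 did not pass, beside 12.5% higher and 11.5% lower of all genes and 21.9% and 17.8% of those averaging 1 CPM or more. HIPK2, a kinase that phosphorylates p53 for apoptosis, fell by 0.63 (SE 0.111; adjusted p = 5.83e-04). TRIM24 and RCHY1, ubiquitin ligases for p53, rose by 0.48 and 0.41, and TP53BP2, which steers p53 towards apoptosis genes, rose by 0.42. CHEK1, TP73, RPL5 and RPL11 were the other higher genes. CDKN2A, the gene of the MDM2 inhibitor ARF, had 0 reads in all 6 libraries. With the block, 10 of the list were higher and 4 were lower, beside 19.5% and 17.8% of all genes.

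A second list held 55 further p53 targets. Of 54 tested, 19 were higher (35.2%) and 10 lower (18.5%), with a median log2 fold change of 0.13. With the block, 23 were higher and 14 lower. Beside these stand 12.5% higher and 11.5% lower of all genes, and 19.5% and 17.8% with the block. Among genes averaging 1 CPM or more, 21.9% were higher and 17.8% lower without the block. DUSP14, a dual-specificity phosphatase, rose by 0.98 (SE 0.118), REV3L, the catalytic subunit of a translesion polymerase, by 0.92 (SE 0.0954), and HSPA4L, a chaperone, by 0.89 (SE 0.0982). PTP4A1, a tyrosine phosphatase, fell by 1.02 (SE 0.0945), at 173 ± 14.6 CPM in siCRP2 cells and 353 ± 33.7 CPM in siCTR cells (SD, n = 3 each). SESN2, the sestrin related to SESN1 and named after its values were seen, rose by 0.73 (SE 0.135). As among the listed targets, members of this list passed in both directions, and without the siCRP2 library 1311 or the siCTR library 0611 the 29 calls became 18 or 19.

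The other lists hold genes of related programmes, and their counts stand beside the same 12.5% higher and 11.5% lower of all genes, or 19.5% and 17.8% with the block. Without the block, 21.9% of the genes averaging 1 CPM or more were higher and 17.8% were lower. Of 16 cell-cycle genes that p53 represses through the DREAM complex, 3 were higher and 5 lower (3 and 6 with the block), with CCNB1, PLK1, AURKA and CDC20 lower at -0.78, -0.66, -0.62 and -0.59. Of 20 interferon-induced genes, 3 were higher and 6 lower (4 and 7 with the block), with IFIT3 and IFIT2 at 0.63 and 0.52 and OAS1 and RIGI at -1.38 and -0.76. Of 13 genes of the integrated stress response, which also induces SESN2 and other p53 targets independently of p53, 6 were higher and 0 lower, with a median of 0.38. With the block 8 were higher and 1 was lower, DDIT4, an inhibitor of mTORC1, at -0.57 (adjusted p = 1.26e-18 with the block, 0.161 without it). DDIT4 is also counted in the list of further p53 targets. DDIT3, VLDLR, SLC7A11 and PSAT1 rose by 0.89, 0.77, 0.65 and 0.44, and 35.9% of the DDIT3 transcript is shared with other annotated genes. That share was 99.5% for ASNS of the stress list, 93.1% for IRF9 of the interferon list and 88.4% for PRC1 of the DREAM list. These genes did not pass, and their counts cannot be read as their expression. The part of these programmes in the values of the p53 targets was not tested.

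**Figure D4:**
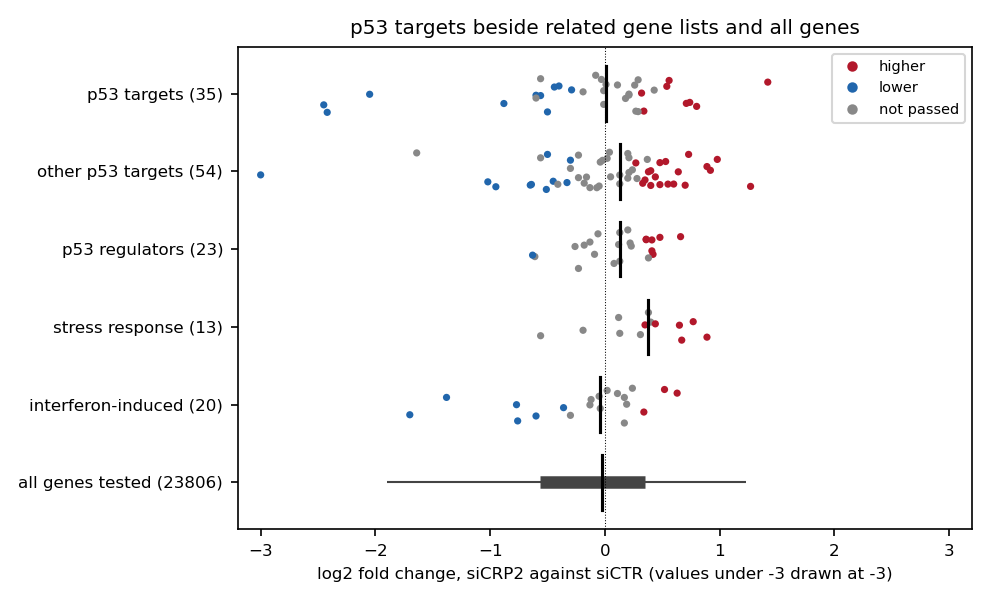
Log2 fold change, siCRP2 against siCTR (x axis), of the 35 p53 targets, of the 4 other gene lists named on the y axis with their number tested, and of all 23806 genes; points are genes coloured by call, black ticks are medians, and for all genes the thick bar spans the 25th to 75th and the thin line the 5th to 95th percentile. The p53 targets straddle 0 with a median of 0.01, the integrated stress response genes have a median of 0.38, and 1 further target is drawn at the left limit.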

How the data were processed

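The authors prepared poly(A) RNA libraries, aligned paired-end reads to GRCh38 with STAR and deposited raw counts per gene from its gene count option, which keeps uniquely mapped reads only. GRCh38 and hg38 are the builds in the submitters' processing notes. The sources used here give neither the STAR version nor the annotation nor the strand setting, so reads of overlapping and antisense genes may not be separated. Columns name the group and a code but no replicate number.

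A gene was kept when 2 or more of a group's 3 libraries held a read of it. Library sizes were corrected with TMM factors, which lay between 0.989 and 1.03. The test was that of edgeR 4.0.16 (glmQLFit, robust, and glmQLFTest, R 4.3.3), siCRP2 against siCTR, with p-values adjusted by the Benjamini-Hochberg method over 23806 genes. A call is an adjusted p under 0.05. CPM are counts scaled to 1000000 per TMM-corrected library total, and an SE is the log2 fold change divided by the root of its F statistic. Pairing by code was checked over the 9629 genes whose mean reached 10 CPM: deviations from the group mean correlated at 0.735, 0.479 and 0.759 between libraries of a code and at 0.122 or less otherwise. The code pairs are therefore given as a block beside results whose call they change. The test was tried on simulated counts first.

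The targets and lists were chosen with earlier results of these data known. CPM in each library were to be given for CDKN1A, MDM2, BAX, BBC3, 1 gene that is not reported here, and every target called with a fold of at least 1.5, and up to 4 genes with the smallest p from each other list. Others shown in full are PLK2, TRIM22 and the targeted gene. Positions come from GENCODE release 44. Alternatives were other scaling factors, filters and tests (DESeq2 1.42.0 and edgeR's exactTest among them), thinning to the smallest total, the block, and leaving out each library.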

Additional observations from a re-analysis of the deposited data

How the results depend on the processing

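No call of a p53 target changed sign in any of the 16 alternative settings. With the replicate block by column code, 15 rather than 8 targets were higher and 11 rather than 10 lower, and 14 rather than 8 p53 regulators passed. Requiring a fold of 1.5 left 4 higher and 5 lower targets. Leaving out each library in turn gave 6 to 8 higher and 8 to 10 lower targets, 18 to 27 further p53 targets and 5 to 9 regulators, with 5 regulators without the siCRP2 library 0611. Without 1 library the calls that could be lost were TRIAP1, APAF1, CCNG1, PLK3 and TP53I3: adjusted p reached 0.214 for TRIAP1, 0.102 for CCNG1 (both without siCRP2 0611), 0.103 for PLK3 (without siCTR 1311) and 0.121 for APAF1 (without siCTR 0611). APAF1 was also lost with library totals alone, the exact test of edgeR and thinning, and TRIAP1 with DESeq2 size factors, upper quartile factors, the exact test, another filter and thinning. Some settings without the block added calls. TRIM22 was gained as lower with the DESeq2 Wald test, without a low-count filter, without siCRP2 0412 and without siCTR 1311. PLK2 was gained as higher without that filter and without siCRP2 0412, and PPM1D without siCTR 1311. The median log2 fold change over all genes moved between -0.086 and 0.015. Targets under about 3 CPM (TNFRSF10C, CYFIP2, BTG2, SPATA18) rest on few reads. The cause of these shifts was not tested.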
